A study of Mus musculus with 4 samples.

Results

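The 10 genes described here are the core and the readout of the Hippo pathway in the mouse heart. They comprise the transcriptional coactivators Yap1 and Wwtr1 (which encodes TAZ), the DNA-binding partner Tead1, the inhibitory kinases Lats1 and Lats2, the kinase adaptor Sav1, the TEAD-binding repressor Vgll4, and the target genes Ctgf, Cyr61 and Amotl2. They were chosen by name, and all 10 of 10 were found among the 27998 genes of the count matrices. The study profiled single nuclei from right ventricles (RVs) of wild-type C57/BL6J mice at postnatal day 21 (P21). The sham group held 2 libraries from sham-operated pups. The RVVO group (right ventricular volume overload) held 2 libraries from pups in which a fistula between the abdominal aorta and the inferior vena cava was made at P7. Neither the labels nor the methods say how many mice a library pooled or whether the libraries of a group came from different mice, so p-values measure only the spread between these samples.

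In the Hippo pathway, the kinases encoded by Lats1 and Lats2, helped by the adaptors SAV1 and MOB1, phosphorylate YAP and TAZ and hold them in the cytoplasm. Unphosphorylated YAP and TAZ enter the nucleus, bind TEAD factors and activate target genes. VGLL4 competes for the same TEAD surface, and AMOTL2 binds YAP and is itself encoded by a target gene. In the heart the pathway is known for restraining cardiomyocyte (CM) proliferation after birth. Most of its control acts on proteins, by phosphorylation and location, and RNA levels in nuclei do not measure that.

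TEAD factors bind the core CATTCC, read as GGAATG on the other strand. Both forms were searched in the 250 bases before the annotated start of each member in the RefSeq promoter table (GRCm38.p6), which held 8 of the 10 members and had no entry for Tead1 or Ctgf. The core was present in 6 of 8 members (75%), against 3880 of 27025 genes of the table (14.4%). A match is a description of letters and not of binding, and counts of this size carry no test here. The 6 matches, in windows of regulators as well as targets, are shown in 30-base stretches, 5′ to 3′ on the strand of the gene. The core is in capitals.
Yap1, chr9:8004720-8004749, minus strand: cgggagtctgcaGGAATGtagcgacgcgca
Wwtr1, chr3:57576029-57576058, minus strand: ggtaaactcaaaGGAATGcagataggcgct
Sav1, chr12:69987091-69987120, minus strand: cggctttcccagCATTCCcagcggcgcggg
Vgll4, chr6:114969268-114969297, minus strand: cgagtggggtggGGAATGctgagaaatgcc
Cyr61, chr3:145650071-145650100, minus strand: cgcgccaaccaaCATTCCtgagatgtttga
Amotl2, chr9:102717727-102717756, plus strand: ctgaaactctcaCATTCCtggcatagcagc
Neither orientation of the core lay in the windows of Lats1 or Lats2. The windows of Yap1, Amotl2 and Lats1 and 1 of the 2 windows of Wwtr1 overlap annotated exons. The windows of Vgll4, Amotl2 and Lats2 precede RefSeq starts that lie inside the gene spans given below. For these genes the window is not sequence upstream of the whole annotated gene.

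In the GRCm38 annotation (GENCODE vM21) Yap1 spans chr9:7931999-8004596, Wwtr1 chr3:57455649-57575910, Tead1 chr7:112679318-112906807, Lats1 chr10:7681214-7716460 and Lats2 chr14:57689662-57758388. Sav1 spans chr12:69965012-69987002, Vgll4 chr6:114860628-114969994 and Amotl2 chr9:102716672-102733418. Ctgf lies at chr10:24595442-24598683 and Cyr61 at chr3:145646976-145649981, and both carry the newer names Ccn2 and Ccn1 there.

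Of 53090 barcodes, 43180 nuclei were kept, and 24313 were assigned to 5 lineages by raw counts of 1 marker gene each. Ryr2 marked 12797 CM nuclei, Ptprb 6181 endothelial nuclei (EC), Pdgfra 2405 fibroblast nuclei (FB), Pdgfrb 1515 mural nuclei and Mrc1 1415 macrophage nuclei (MAC). Libraries held 51010039 to 64739206 unique molecular identifiers (UMIs), with medians of 2262 and 2311 UMIs per barcode in the sham group and 3378 and 4705 in the RVVO group. Further markers were not used to assign nuclei but were chosen with earlier results of these data known. All 7 CM, 7 endothelial, 6 fibroblast and 7 macrophage genes, and 6 of 7 mural genes, were highest in their own lineage in all 4 libraries. CM transcripts were also counted in the other nuclei, where the summed level of the 7 CM genes was 16.6 to 33.4% of that in Ryr2 nuclei. Xist was at 1475 and 1486 CPM (UMIs scaled to a total of 1000000) in the sham libraries and at 0.825 and 0.643 CPM in the RVVO libraries, while Uty was at 322 and 317 CPM in the RVVO libraries. Wherever the groups are compared below, sex and surgery cannot be told apart.

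Levels are CPM of all UMIs of a lineage in a library, and values are given in the order sham 1, sham 2, RVVO 1, RVVO 2. Lineages were compared with edgeR's quasi-likelihood test on UMIs summed per library and lineage, each lineage against the mean of the other 4, with p-values adjusted over 13227 genes. Scaling mattered for this comparison. TMM scaling factors were 0.696 to 0.754 in Ryr2 nuclei and 1.01 to 1.17 in the other nuclei, so that the median log2 difference over all genes in Ryr2 nuclei was -0.06 with TMM and -0.66 with library totals alone, a shift of 0.60. The shift was -0.06 in Ptprb, -0.21 in Pdgfra, -0.13 in Pdgfrb and -0.20 in Mrc1 nuclei.

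The lineages differed in their levels of Hippo members. Ryr2 nuclei were high in Tead1, and both Ryr2 and Pdgfrb nuclei in Yap1. Ptprb nuclei were high in Wwtr1, Lats2, Vgll4 and Amotl2 and Pdgfrb nuclei in Ctgf, while Mrc1 nuclei were low in Yap1, Wwtr1 and Tead1. Of the 10 members, 5 were called higher and 4 lower in Ryr2 nuclei, where 38.8% of all genes tested were called higher and 42.7% lower. With library totals the split was 2 higher and 6 lower. Ptprb nuclei had 5 members higher and 0 lower, with 27.5% and 32.3% of all genes called. Pdgfra nuclei had 0 higher and 3 lower, with 22.6% and 27.8% of all genes called, but 3 higher and 1 lower with library totals. Pdgfrb nuclei had 2 higher and 2 lower (16.9% and 19% of all genes), and Mrc1 nuclei had 1 higher and 6 lower (24.7% and 25.4%). With library totals these were 3 and 1, and 2 and 5.

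**Figure D1:**
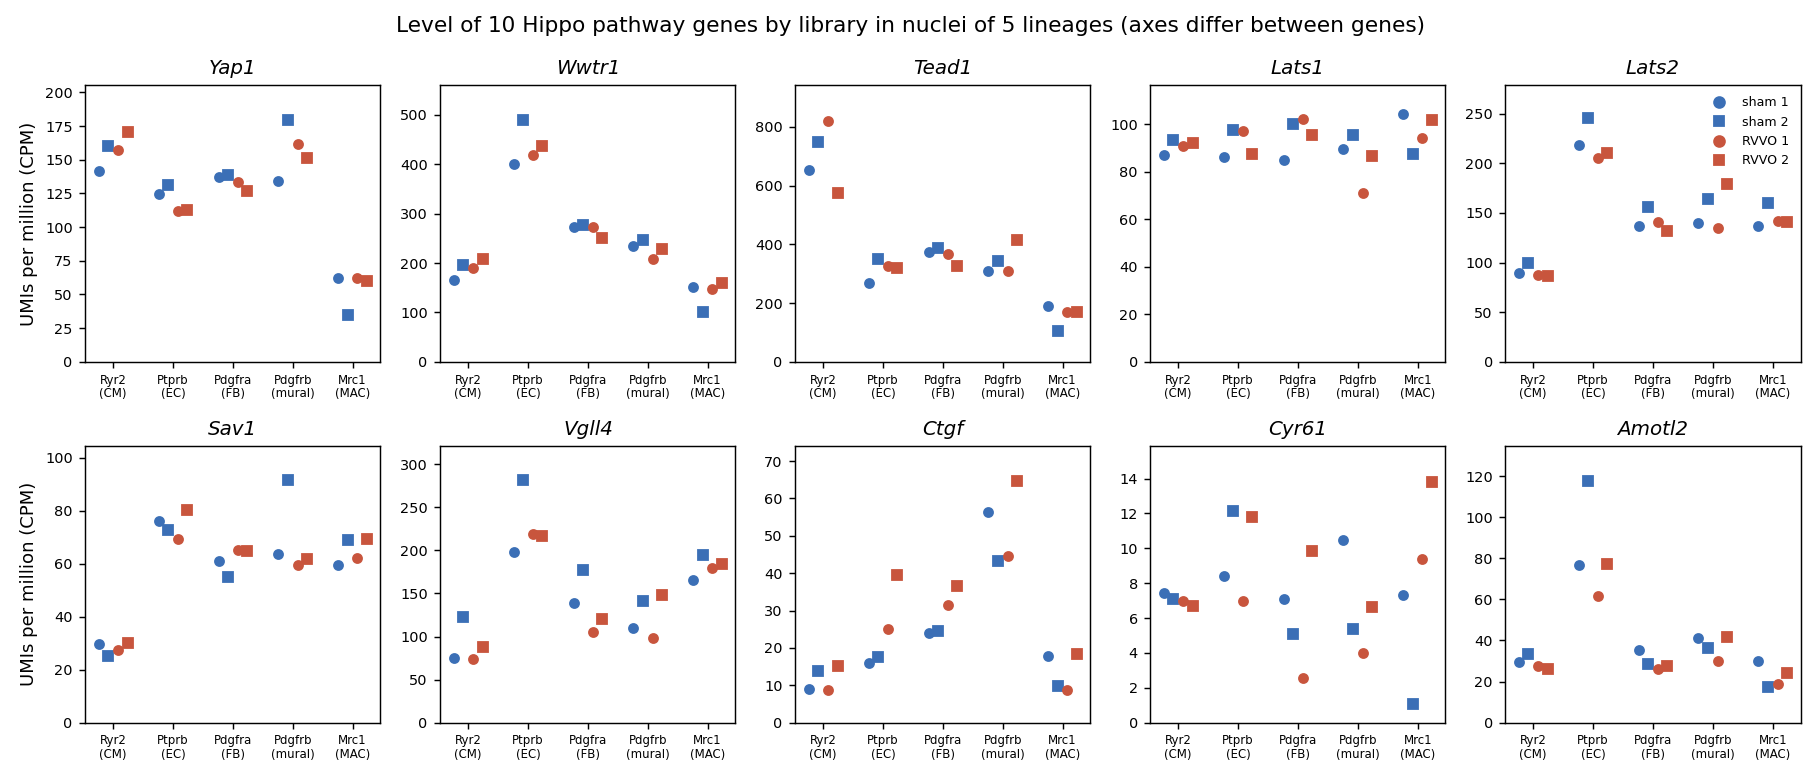
CPM of each of the 10 genes (vertical axes, linear from 0) in the 5 lineages (horizontal axes: CM, cardiomyocyte; EC, endothelial; FB, fibroblast; MAC, macrophage), with 1 point per library. Tead1 stands at 575 to 821 CPM in Ryr2 nuclei, above every other lineage, and Wwtr1 at 400 to 490 CPM in Ptprb nuclei.

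Yap1 was measured at 142, 160, 158 and 171 CPM in Ryr2 nuclei (157 ± 12, mean ± SD, n = 4 libraries). Pdgfrb nuclei gave 134, 180, 162 and 151 CPM, which overlapped the CM range. In Pdgfra nuclei Yap1 stood at 137, 138, 134 and 126 CPM and in Ptprb nuclei at 124, 131, 112 and 112 CPM. Mrc1 nuclei held the least, with 62.5, 34.5, 62.3 and 60.1 CPM, below every other sum. That was 21.6 to 44.1% of the level in Ryr2 nuclei, beside 19.3 to 29.8% for the 7 summed CM genes. The part of CM transcripts in these values was not tested. The log2 difference from the other lineages was 1.13 (SE 0.0815, adjusted p = 2.38e-11) in Ryr2 nuclei, 0.39 (adjusted p = 0.00336) in Pdgfrb nuclei and -1.53 (adjusted p = 2.94e-10) in Mrc1 nuclei. All 3 kept their direction and call with library totals, at 0.53, 0.52 and -1.33.

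Wwtr1 followed another order. It reached 400, 490, 419 and 438 CPM in Ptprb nuclei (437 ± 38.7), then 273, 277, 273 and 251 CPM in Pdgfra nuclei and 234, 247, 209 and 229 CPM in Pdgfrb nuclei. Ryr2 nuclei followed with 165, 197, 190 and 207 CPM and Mrc1 nuclei with 151, 100, 148 and 160 CPM. In CPM, which scales by library totals, the ranges of neighbouring lineages in this order did not overlap. TMM factors were lowest in Ryr2 nuclei, so the place of Ryr2 nuclei in this order depended on the scaling. Wwtr1 was higher in Ptprb nuclei by a log2 difference of 1.05 (SE 0.0774, adjusted p = 1.37e-10) and lower in Mrc1 nuclei, at -1.12 (adjusted p = 2.75e-09). In Ryr2 nuclei its direction depended on the scaling, with 0.22 (adjusted p = 0.0177) under TMM and -0.39 (adjusted p = 0.000187) with library totals, and without RVVO 2 the TMM call was lost (adjusted p = 0.0912).

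The ratio of 2 genes' UMIs within a library needs no scaling, and it was used to compare lineages and not the abundance of the genes. These ratios were chosen after the levels were seen and carry no test. Wwtr1 UMIs per Yap1 UMI numbered 1.17, 1.23, 1.21 and 1.22 in Ryr2 nuclei and 3.22, 3.73, 3.73 and 3.90 in Ptprb nuclei. Pdgfra nuclei gave 1.98, 2.0, 2.04 and 1.98, Pdgfrb nuclei 1.75, 1.37, 1.30 and 1.52, and Mrc1 nuclei 2.42, 2.91, 2.37 and 2.67. Every Ryr2 value lay below and every Ptprb value above all values of the other lineages.

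**Figure D2:**
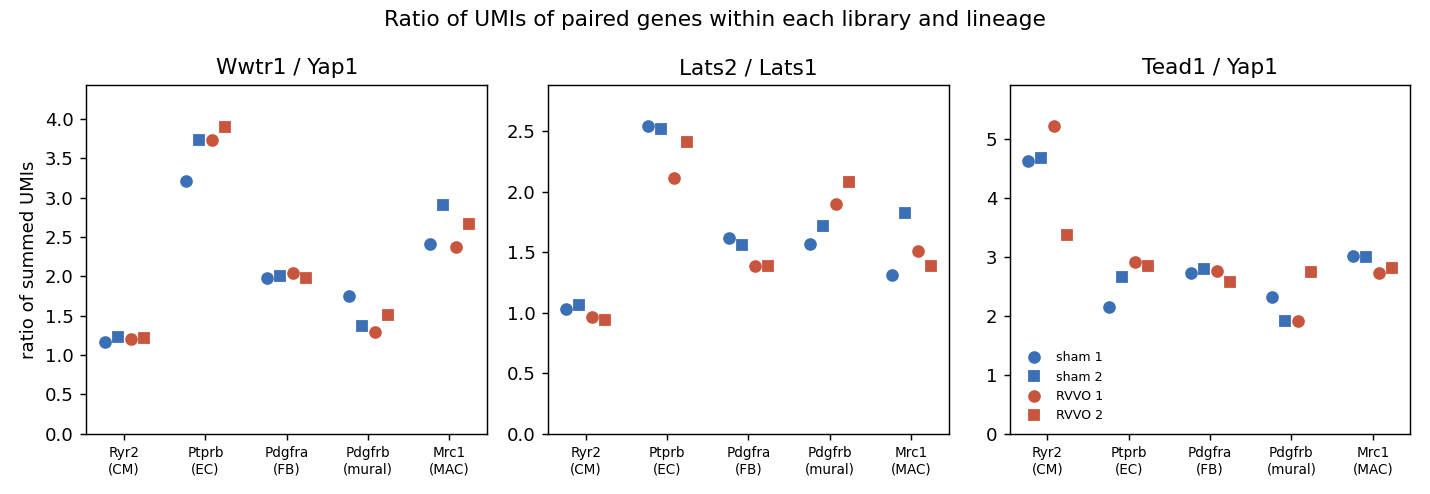
Ratios of summed UMIs of Wwtr1 to Yap1, Lats2 to Lats1 and Tead1 to Yap1 (vertical axes, linear from 0) by lineage, with 1 point per library. Wwtr1 to Yap1 is 1.17 to 1.23 in Ryr2 nuclei and 3.22 to 3.90 in Ptprb nuclei, and Lats2 to Lats1 is 0.940 to 1.06 and 2.11 to 2.54 in the same nuclei.

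Tead1, which encodes the DNA-binding partner of YAP and TAZ, was the member most set apart in CM nuclei. It was measured at 654, 749, 821 and 575 CPM in Ryr2 nuclei (700 ± 108). The log2 difference was 1.92 (SE 0.0963, adjusted p = 4.53e-14) with TMM and 1.31 with library totals. Pdgfra nuclei held 374, 386, 369 and 326 CPM, Pdgfrb nuclei 310, 343, 309 and 414 CPM and Ptprb nuclei 268, 349, 327 and 320 CPM, and these 3 ranges overlapped. Mrc1 nuclei held 189, 104, 170 and 169 CPM (log2 difference -1.56, adjusted p = 1.17e-09).

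After each nucleus was thinned to 1000 UMIs, a Tead1 UMI was found in 44.1, 48.5, 52.9 and 41.4% of Ryr2 nuclei (unthinned 76.2, 79.6, 94.0 and 84.3%). In Mrc1 nuclei the thinned shares were 9.63, 8.14, 10.6 and 10.5% (unthinned 24.6, 18.1, 37.3 and 29.8%). Between 0 and 279 Ryr2 nuclei and between 0 and 31 Mrc1 nuclei of a library were too shallow to be thinned. The CPM of Tead1 in Mrc1 nuclei was 13.8 to 29.4% of that in Ryr2 nuclei, where the summed level of the 7 CM genes stood at 19.3 to 29.8%. The single CM genes spread widely around that sum in Mrc1 nuclei, from 2.86 to 6.56% for Rbm20 and 4.28 to 8.05% for Cacna1c up to 42.9 to 61.3% for Myh6. Tead1 lay inside this spread, so its UMIs in Mrc1 nuclei cannot be told apart from free CM RNA. In Ptprb nuclei Tead1 stood at 39.8 to 55.6% of its CM level, above the 23.7 to 30.8% of the summed CM genes and above Rbm20 (2.69 to 4.22%), but not above Myh6 (56.3 to 66.3%) and within the range of Pln (42.6 to 54.3%) in part.

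The kinase genes differed from each other. In CPM Lats1 had the flattest profile of the 10 genes named here, with all 20 sums between 70.8 and 104 CPM. Its lineage means ran from 85.6 ± 10.6 CPM in Pdgfrb nuclei to 96.8 ± 7.57 CPM in Mrc1 nuclei. In Ryr2 nuclei it was at 87.0, 93.4, 90.8 and 92.1 CPM, which was a log2 difference of 0.58 (adjusted p = 2.82e-08) with TMM but -0.03 (adjusted p = 0.687) with library totals. In Pdgfrb nuclei the difference was -0.27 (adjusted p = 0.0139), and this call was lost with library totals (-0.14, adjusted p = 0.223), without RVVO 1 (adjusted p = 0.159) and without RVVO 2 (adjusted p = 0.0564).

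Lats2 was highest in Ptprb nuclei, with 219, 246, 205 and 210 CPM (log2 difference 0.69, adjusted p = 1.22e-09). In CPM it was lowest in Ryr2 nuclei, with 89.4, 99.1, 87.4 and 86.5 CPM (-0.24, adjusted p = 0.00116, and -0.84 with library totals). With TMM the Ryr2 difference was close to those in Pdgfra and Mrc1 nuclei, so this rank depended on the scaling. The Ryr2 call was lost when nuclei were thinned before assignment (-0.14, adjusted p = 0.125). In CPM Pdgfrb, Mrc1 and Pdgfra nuclei lay between Ptprb and Ryr2 nuclei, at 134 to 180, 136 to 160 and 132 to 156 CPM, and overlapped. Lats2 was called lower in Pdgfra nuclei (-0.24, adjusted p = 0.00413) and in Mrc1 nuclei (-0.20, adjusted p = 0.0195), but with library totals the differences were -0.03 and 0.0036 and neither was called. The Mrc1 call was also lost without sham 1 (adjusted p = 0.0651). Lats2 UMIs per Lats1 UMI numbered 1.03, 1.06, 0.963 and 0.940 in Ryr2 nuclei and 2.54, 2.52, 2.11 and 2.41 in Ptprb nuclei. The other 3 lineages ranged from 1.31 to 2.08.

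Sav1, the adaptor that brings the upstream kinase to LATS, was lowest in Ryr2 nuclei, at 29.6, 25.2, 27.3 and 30.1 CPM (log2 difference -0.67, SE 0.0851, adjusted p = 2.91e-07). Every other sum was at least 55.1 CPM. Ptprb nuclei held 76.0, 72.6, 69.3 and 80.3 CPM and were called higher (0.43, adjusted p = 0.000144), within the range of Pdgfrb nuclei, at 63.7, 91.7, 59.7 and 61.7 CPM.

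Vgll4 was highest in Ptprb nuclei, at 198, 282, 219 and 217 CPM (log2 difference 0.77, adjusted p = 1.66e-08), followed by Mrc1 nuclei at 166, 194, 180 and 184 CPM, with no overlap between these ranges. In CPM Ryr2 nuclei held the least on average, at 75.4, 122, 74.5 and 87.3 CPM, where sham 2 stood apart. With TMM the Ryr2 difference was smaller in size than those in Pdgfra and Pdgfrb nuclei, so this rank depended on the scaling. The Ryr2 difference of -0.26 (adjusted p = 0.00493) lost its call without sham 1 (adjusted p = 0.0692) or RVVO 1 (adjusted p = 0.0636). Vgll4 was also called lower in Pdgfra (-0.34, adjusted p = 0.00288) and Pdgfrb nuclei (-0.40, adjusted p = 0.0018). In Pdgfra nuclei the call was lost with library totals (-0.13, adjusted p = 0.232). The difference in Mrc1 nuclei was 0.23 (adjusted p = 0.0334) and lost its call without sham 1 (adjusted p = 0.0894), RVVO 1 (adjusted p = 0.347) or RVVO 2 (adjusted p = 0.0913).

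The 3 targets had their highest levels in different nuclei. Ctgf encodes a secreted matricellular protein and was highest in Pdgfrb nuclei, at 56.5, 43.2, 44.6 and 64.6 CPM (log2 difference 1.40, SE 0.169, adjusted p = 6.99e-07). Pdgfra nuclei held 24.1, 24.5, 31.4 and 36.5 CPM, which overlapped the 15.9, 17.5, 25.0 and 39.6 CPM of Ptprb nuclei. Ryr2 nuclei, at 9.05, 13.8, 8.80 and 15 CPM, and Mrc1 nuclei, at 17.7, 9.71, 8.69 and 18.3 CPM, were both called lower (-0.58, adjusted p = 0.000878, and -1.14, adjusted p = 0.000183).

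Amotl2, which encodes an angiomotin of cell junctions, was highest in Ptprb nuclei, at 77.0, 118, 61.8 and 77.1 CPM (log2 difference 1.43, SE 0.106, adjusted p = 1.37e-10). The other sums lay between 17.3 and 41.8 CPM. It was lower in Pdgfra (-0.58, adjusted p = 0.00147) and Mrc1 nuclei (-1.0, adjusted p = 2.12e-05). In Ryr2 nuclei its difference was 0.22 and not called with TMM (adjusted p = 0.061), and -0.38 and called with library totals (adjusted p = 0.00257).

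Cyr61, another matricellular gene, was barely counted, with 1.08 to 13.8 CPM in all 20 sums and a UMI in at most 1.81% of nuclei of any lineage after thinning. In Ryr2 nuclei it was at 7.41, 7.11, 6.99 and 6.70 CPM, and its difference of 0.50 (adjusted p = 0.0308) with TMM became -0.10 with library totals (adjusted p = 0.647). The TMM call was lost without RVVO 1 (adjusted p = 0.146), with DESeq2 (adjusted p = 0.0694) and with no library block (adjusted p = 0.0741). Cyr61 was not called in the other lineages, and the part of depth or of the spread between libraries in this was not tested.

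**Figure D3:**
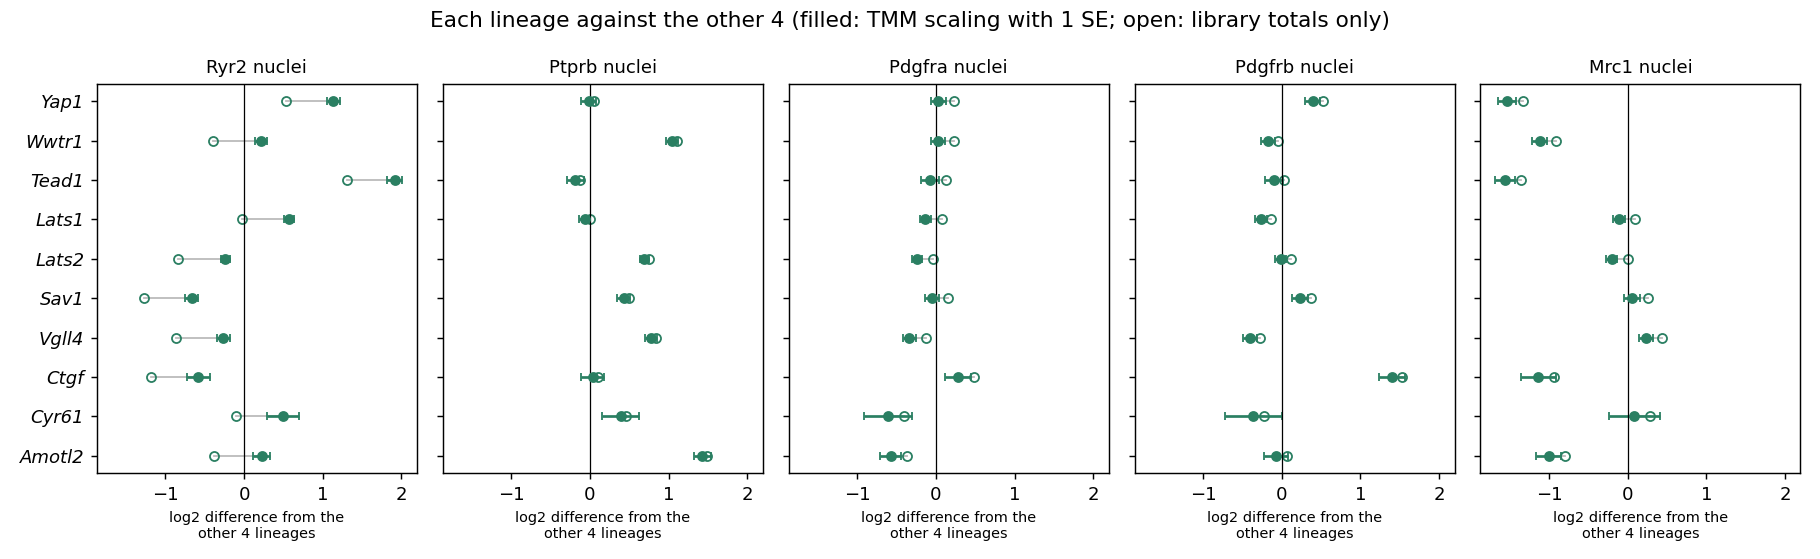
Log2 difference of each of the 10 genes in each lineage from the mean of the other 4 (edgeR, bars 1 SE), with TMM scaling and with library totals alone. In Ryr2 nuclei Wwtr1 changes from 0.22 to -0.39, Lats1 from 0.58 to -0.03 and Cyr61 from 0.50 to -0.10 between the scalings, and Lats2 in Mrc1 nuclei from -0.20 to 0.0036, whereas Tead1 in Ryr2 nuclei stays higher at 1.92 and 1.31.

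A wider set of 44 pathway genes was compared in the same way, in lists of 9 kinase core and adaptor genes, 12 upstream junction and scaffold genes, 6 TEAD partners and 17 further targets, and 9, 12, 4 and 15 of them were tested. In Ryr2 nuclei 1 kinase gene was higher and 7 lower (median log2 difference -1.03), 4 upstream genes were higher and 7 lower (-0.96), 1 TEAD partner was higher and 3 lower (-3.49) and 5 targets were higher and 9 lower (-1.01), beside a median of -0.06 over all genes, of which 38.8% were higher and 42.7% lower. With library totals the splits were 1 and 8, 1 and 8, 1 and 3, and 4 and 10, with medians of -1.63, -1.57, -4.10 and -1.61 beside -0.66. The 3 with the largest increases in Ryr2 nuclei were all listed as targets. Nt5e, an ecto-nucleotidase gene, was at 87.7, 65.8, 177 and 89.9 CPM (log2 difference 3.24), F3, the tissue factor gene, at 20.7, 24.1, 24.6 and 26.1 CPM (2.78) and Ankrd1, a stretch-responsive muscle ankyrin repeat gene, at 98.1, 129, 74.3 and 132 CPM (1.83).

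In Ptprb nuclei 5 kinase genes were higher and 2 lower, 6 upstream genes higher and 3 lower, 2 TEAD partners higher and 2 lower, and 4 targets higher and 6 lower, with medians of 0.28, 0.69, 0.35 and -0.17 beside -0.08 over all genes, of which 27.5% were higher and 32.3% lower. With library totals 6 kinase genes were higher and 1 lower, and the other 3 lists kept their counts. Tead4, a paralogue of Tead1, stood at 107, 155, 122 and 142 CPM in Ptprb nuclei (log2 difference 3.51, adjusted p = 1.13e-15). The atypical cadherin genes Fat4 and Dchs1, which encode a receptor and its ligand, differed by 2.83 and 2.07.

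In Pdgfra nuclei the kinase genes split into 3 higher and 4 lower, the upstream genes into 4 and 4, the TEAD partners into 2 and 1 and the targets into 8 and 2, with medians of -0.08, 0.27, 0.62 and 0.58 beside -0.08 over all genes (22.6% higher and 27.8% lower). With library totals the splits were 3 and 2, 6 and 2, 2 and 1, and 10 and 2. Axl, a receptor tyrosine kinase gene, was at 372, 463, 418 and 385 CPM (3.17), Vgll3 differed by 3.03 and Ccdc80 by 2.29. Pdgfrb nuclei had 2 kinase genes higher and 1 lower, 6 upstream genes higher and 2 lower, 4 TEAD partners higher and 0 lower and 5 targets higher and 4 lower (medians -0.01, 0.37, 1.24 and 0.19 beside -0.05 over all genes, of which 16.9% were higher and 19% lower). With library totals the kinase genes split into 3 and 0 and the targets into 7 and 3. Arhgef17 differed there by 3.14, and the LIM genes Ajuba and Limd1, whose proteins bind LATS kinases, by 2.91 and 2.22. In Mrc1 nuclei 6 kinase genes were higher and 1 lower, 0 upstream genes higher and 7 lower, 0 TEAD partners higher and 1 lower and 3 targets higher and 10 lower (medians 0.43, -0.56, 0.02 and -0.48 beside -0.07 over all genes, of which 24.7% were higher and 25.4% lower). With library totals the splits were 8 and 1, 0 and 6, 0 and 1, and 3 and 6. Nuak2 and Myof, both listed as targets, differed by 2.78 and 2.66 and the kinase gene Taok3 by 2.10. All 15 named genes kept their direction with library totals.

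The genes whose log2 CPM was most like that of a member over the 20 sums were taken as the 3 highest Pearson correlations, which carry no test because the sums share libraries and lineages. For Yap1 these were Airn (r = 0.967), Cuedc1 (0.948) and Igf2r (0.942), and for Wwtr1 Tjp1 (0.958), Eml1 (0.953) and Pcnx (0.948). Tead1 was followed most closely by Acyp2 (0.95), Zc3h7b (0.934) and Rprd1a (0.923). Lats2 was matched by Cdc42bpb (0.974), Ccnyl1 (0.973) and Klf7 (0.968), whereas the flat profile of Lats1 reached 0.846 with Taf7. Sav1 was matched by Tpm4 (0.979), Vgll4 by Piezo1 (0.937), a mechanosensitive channel gene, Ctgf by Wdfy1 (0.924), Cyr61 by Phf5a (0.730) and Amotl2 by Dennd5b (0.944), Arhgap29 (0.923) and Ctnnb1 (0.922).

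The RVVO group was then compared with the sham group within each lineage, 2 libraries against 2. None of the 10 members passed an adjusted p of 0.05 in any lineage with edgeR, and 0 passed with DESeq2. Unadjusted p-values under 0.05 numbered 0 in Ryr2, 2 in Ptprb, 1 in Pdgfra, 0 in Pdgfrb and 0 in Mrc1 nuclei. Over all genes tested they numbered 848 of 14521, 1170 of 13067, 544 of 11809, 369 of 10222 and 716 of 10471. Few genes of any kind were called, at 0.0482% of 14521 tested in Ryr2, 0.26% of 13067 in Ptprb, 0.102% of 11809 in Pdgfra, 0.0685% of 10222 in Pdgfrb and 0.0764% of 10471 in Mrc1 nuclei. All 10 members were tested in each lineage except Cyr61 in Pdgfrb nuclei, which had 5 to 13 UMIs per library and fell under the filter on low counts.

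In Ryr2 nuclei the groups did not overlap for 3 of 10 members, all lower in the RVVO group, where 36.3% of all genes did not overlap. These were Lats2, Cyr61 and Amotl2, the last at 29.3 and 33.3 CPM in the sham group and 27.4 and 26.2 CPM in the RVVO group. The median log2 fold change of the members was -0.04 beside -0.00 over all genes. Yap1, Wwtr1 and Tead1 overlapped between the groups, and the 2 RVVO libraries held the highest and the lowest Tead1 level of the 4.

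In Ptprb nuclei 3 of 10 members did not overlap, against 39.1% of all genes, with Ctgf higher and Yap1 and Lats2 lower in the RVVO group. The numbers were 6 of 10 against 31.9% in Pdgfra nuclei, with Sav1 and Ctgf higher and Yap1, Tead1, Vgll4 and Amotl2 lower, 3 of 9 against 29% in Pdgfrb nuclei, with Wwtr1, Lats1 and Sav1 lower, and 1 of 10 against 36.7% in Mrc1 nuclei, with Cyr61 higher. Median log2 fold changes of the members were -0.18, -0.10, -0.05 and -0.00 in these 4 lineages, beside 0.00, 0.00, 0.00 and -0.01 over all genes.

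**Figure D4:**
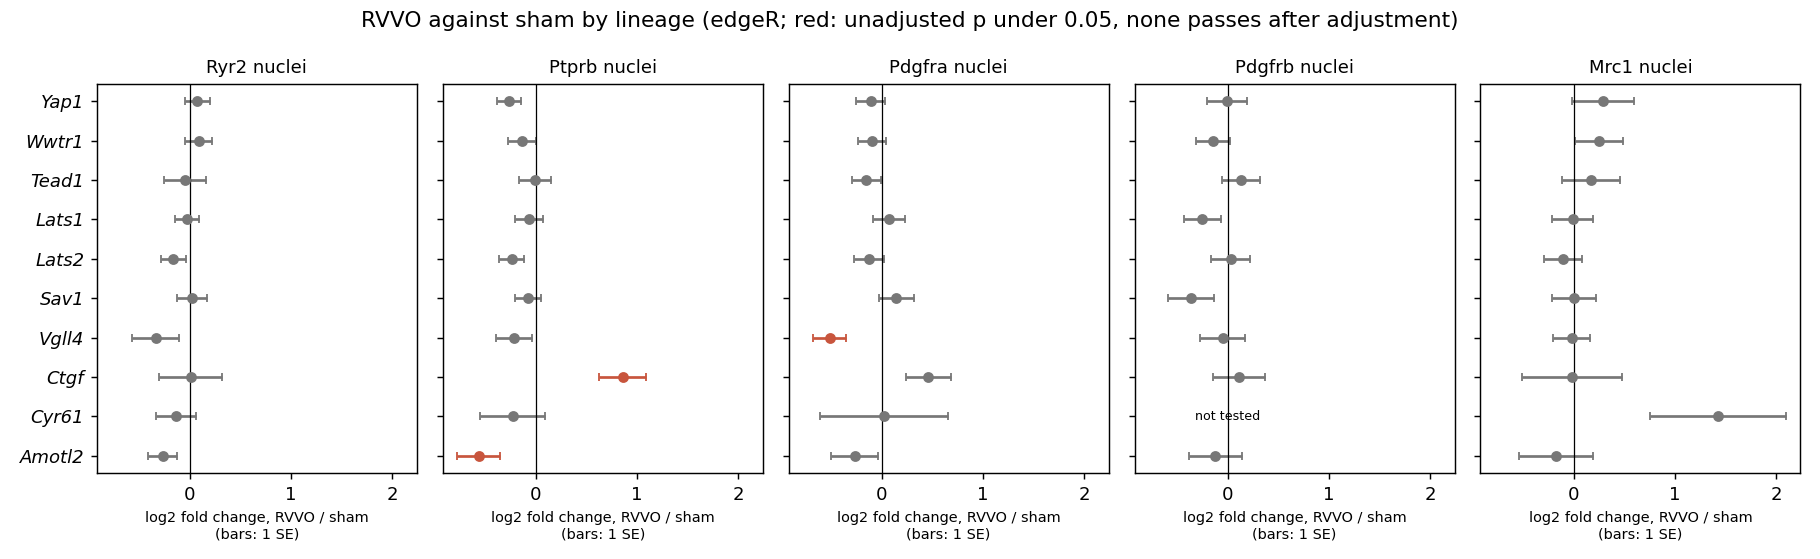
Log2 fold change of each member in RVVO against sham nuclei in each lineage (points, edgeR estimates; bars 1 SE), with unadjusted p-values under 0.05 in red. Ctgf at 0.86 and Amotl2 at -0.57 in Ptprb nuclei and Vgll4 at -0.51 in Pdgfra nuclei are the red points, and none passes after adjustment.

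Ctgf in Ptprb nuclei had the lowest p of the 10 members in any lineage. Its level was 15.9 and 17.5 CPM in the sham libraries and 25.0 and 39.6 CPM in the RVVO libraries, from 102, 85, 133 and 148 UMIs. The 2 RVVO libraries were higher than both sham libraries, and RVVO 2 was well above RVVO 1. The log2 fold change was 0.86 (SE 0.236, edgeR adjusted p = 0.282). It was 0.52 without RVVO 2 and 1.14 without RVVO 1, where it passed (adjusted p = 0.0338), and it also passed with no filter on low counts (0.84, adjusted p = 0.00529). After thinning to 1000 UMIs, a Ctgf UMI was found in 1.44, 1.41, 2.28 and 4.55% of Ptprb nuclei (unthinned 4.42, 3.59, 8.04 and 11.5%). In Mrc1 nuclei, taken as a comparison and not as a known background, the thinned shares were 1.48, 1.36, 1.57 and 2.35%. Median depths were 2654, 2314, 3405 and 2770 UMIs in Ptprb nuclei and 2468, 2398, 3979 and 2944 UMIs in Mrc1 nuclei. At 1000 UMIs the sham shares in Ptprb nuclei were close to those in Mrc1 nuclei, and at 2000 UMIs they were 3.21 and 2.53% against 2.31 and 1.5%.

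Markers of endothelial subtypes, picked after the values were seen, were also counted in the Ptprb nuclei. Summed CPM of 3 endocardial markers (Npr3, Cytl1, Tmem108) was 242, 221, 447 and 625. More endocardial nuclei and more marker RNA per nucleus cannot be told apart from these sums. The capillary list stood at 938, 717, 729 and 629 CPM, the arterial list at 96.1, 92.4, 69.5 and 79.5 CPM and the venous list at 276, 299, 506 and 574 CPM. An Npr3 UMI was found in 3.66, 2.52, 7.93 and 10.0% of Ptprb nuclei after thinning to 1000 UMIs (unthinned 6.13, 4.98, 16.4 and 18.8%). Ctgf was at 38.6, 67.9, 56.5 and 68.6 CPM in Ptprb nuclei with an Npr3 UMI and at 14, 13.4, 16.5 and 31.1 CPM in those without. Without the Npr3 nuclei the log2 fold change of Ctgf was 0.69 (adjusted p = 0.711). The 6 fibroblast markers summed to 525, 645, 730 and 1042 CPM in Ptprb nuclei and the 7 mural markers to 1110, 632, 697 and 780 CPM. No single marker of these was at 0 in every library. The part of these other cells in the Ctgf difference was not tested.

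**Figure D5:**
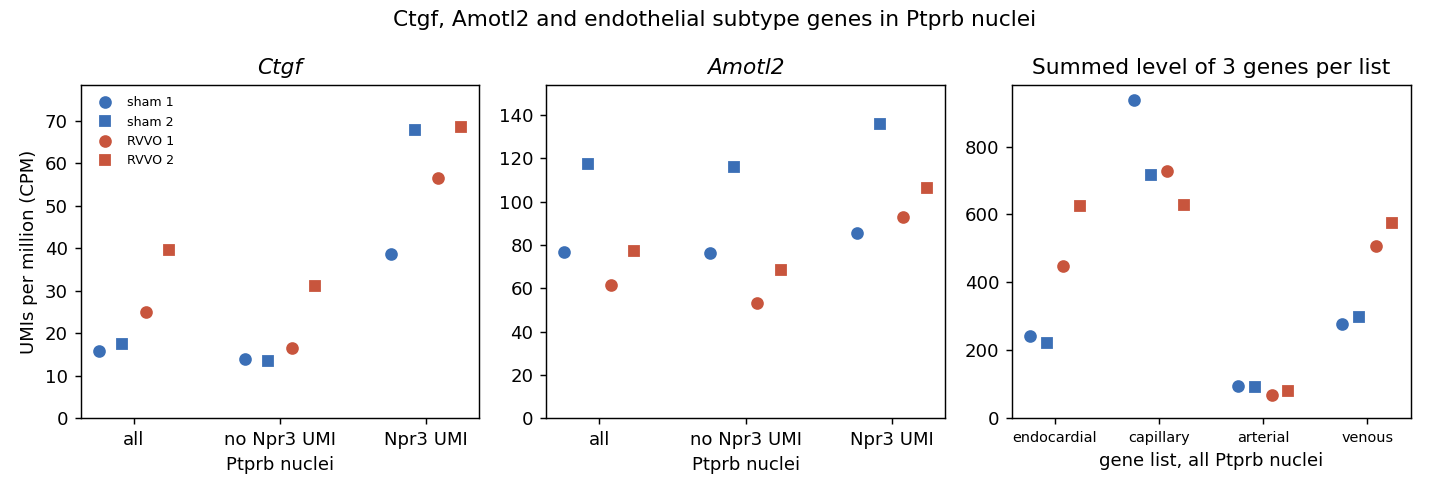
CPM of Ctgf and Amotl2 in all Ptprb nuclei and in those with and without an Npr3 UMI, and summed CPM of the 4 endothelial subtype lists of 3 genes each in all Ptprb nuclei (vertical axes linear from 0), with 1 point per library. Ctgf lies at 38.6 to 68.6 CPM in nuclei with an Npr3 UMI and at 13.4 to 31.1 CPM in nuclei without, where RVVO 2 is the highest library.

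Amotl2 pointed the other way in the same nuclei. It was at 77.0 and 118 CPM in the sham libraries and 61.8 and 77.1 CPM in the RVVO libraries, so that sham 1 and RVVO 2 met. Its log2 fold change was -0.57 (SE 0.210, adjusted p = 0.478), and it was -0.26 without sham 2 and -0.84 without sham 1. With no filter on low counts it passed (-0.58, adjusted p = 0.0171). Without the Npr3 nuclei it was -0.73 (adjusted p = 0.392). Both genes are listed here as targets, and neither passed the adjusted test. Their estimates had opposite signs, and the activity of YAP was not tested. Yap1 itself was at 124 and 131 CPM in the sham and 112 and 112 CPM in the RVVO libraries (log2 fold change -0.27, adjusted p = 0.603), and Lats2 at 219 and 246 against 205 and 210 CPM (-0.24, adjusted p = 0.689).

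In Pdgfra nuclei Vgll4 was at 139 and 178 CPM in the sham and 106 and 120 CPM in the RVVO libraries (log2 fold change -0.51, SE 0.164, adjusted p = 0.913). The estimate was -0.06 when nuclei were thinned before they were assigned and -0.34 without sham 2. Ctgf in these nuclei was at 24.1 and 24.5 against 31.4 and 36.5 CPM (0.46, adjusted p = 0.998). In Mrc1 nuclei Cyr61 rested on 7, 1, 13 and 31 UMIs, at 7.29 and 1.08 against 9.41 and 13.8 CPM (1.43, adjusted p = 0.759), and it was 3.34 without sham 1 and 0.66 without sham 2.

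Among the 44 wider genes 0 passed in any lineage with edgeR at an adjusted p of 0.05. In Ryr2 nuclei 1 target had an unadjusted p under 0.05, in Ptprb nuclei 3 targets and in Pdgfra nuclei 4 targets. In Pdgfrb nuclei 1 TEAD partner and 1 target and in Mrc1 nuclei 1 TEAD partner and 3 targets had one. These counts stand beside the numbers over all genes given above and are not read as a result about the lists. Igfbp3, a target gene that encodes a secreted binder of insulin-like growth factors, had non-overlapping groups, with the RVVO libraries higher, in all 5 lineages. Lack of overlap was part of how it was picked. Of all genes tested, 3399 of 14521 in Ryr2 and 3620 of 13067 in Ptprb nuclei were higher without overlap. The numbers were 2082 of 11809 in Pdgfra, 1463 of 10222 in Pdgfrb and 2190 of 10471 in Mrc1 nuclei. How many genes were so in all 5 lineages was not counted. Igfbp3 was at 53.8 and 40.8 CPM in the sham and 112 and 102 CPM in the RVVO libraries of Pdgfra nuclei (log2 fold change 1.17, SE 0.195, edgeR adjusted p = 0.196). It passed there with DESeq2 (adjusted p = 0.049), and in edgeR with no filter on low counts (0.0208) or a stricter barcode filter (0.0397). It did not pass in the other alternatives that kept all libraries. Leaving out each library in turn gave log2 fold changes from 0.95 to 1.38.

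Igfbp3 levels were 14.5, 19.3, 37.4 and 39.9 CPM in Pdgfrb nuclei (1.18, adjusted p = 0.757), 10.4, 8.63, 18.8 and 23.6 CPM in Mrc1 nuclei (1.12, adjusted p = 0.576) and 3.35, 3.29, 5.86 and 8.13 CPM in Ryr2 nuclei (1.02, adjusted p = 0.788), and the fold change in Ptprb nuclei was 0.39 (adjusted p = 0.635). Nuclei of 1 library share free RNA, so these lineages are not independent of each other. In Ptprb nuclei Nt5e was at 13.1, 10.9, 44.1 and 17.9 CPM, with RVVO 1 far above the other libraries. The log2 fold change was 1.31 (edgeR adjusted p = 0.358), 1.80 without RVVO 2 and 0.46 without RVVO 1. In the edgeR alternative with no filter on low counts Nt5e passed there (1.30, adjusted p = 8.36e-07). Ryr2 nuclei of the same libraries held 87.7, 65.8, 177 and 89.9 CPM. The part of free CM RNA in the Ptprb values was not tested. In Ryr2 nuclei, where Nt5e was also highest in RVVO 1, at 177 CPM, the log2 fold change was 0.76. It was 0.16 without RVVO 1 and 1.19 without RVVO 2. Other wider genes with the largest changes without overlap in a lineage were not called with edgeR either. Higher were F3 in Ptprb (0.73) and Pdgfra nuclei (1.28) and Vgll3 (0.81) and Dlg5 (0.38) in Pdgfrb nuclei. Dock5 (1.31) and Tead4 (1.26) were higher in Mrc1 nuclei. Lower were Ajuba in Ryr2 (-0.95) and Ptprb nuclei (-0.66) and Gadd45a in Pdgfra nuclei (-0.80). Several of these rested on few UMIs. Ajuba had 21, 28, 11 and 28 UMIs in Ryr2 nuclei and Gadd45a 13, 10, 13 and 9 in Pdgfra nuclei. In Mrc1 nuclei Dock5 had 10, 8, 24 and 68 UMIs and Tead4 8, 14, 39 and 66.

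The RVVO effect in each lineage was also compared with that in the other 4 in a single fit. None of the 10 members differed at an adjusted p of 0.05, against 0.0756% of all genes in Ryr2, 0% in Ptprb, 0.0151% in Pdgfra, 0% in Pdgfrb and 0% in Mrc1 nuclei. Unadjusted p-values under 0.05 were found for Ctgf in Ptprb nuclei (log2 difference 0.71, SE 0.263, adjusted p = 1), Vgll4 in Pdgfra nuclei (-0.36, adjusted p = 0.945) and Cyr61 in Mrc1 nuclei (1.66, adjusted p = 0.509).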

How the data were processed

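Count matrices of 2 sham and 2 RVVO libraries (10x Genomics 3′ chemistry, nuclear RNA, P21 RV) were used as deposited. The values are UMI counts per gene and barcode that the authors made with Cell Ranger against GRCm38 (mm10). The submitters' processing notes name version 3.0.1 and the file headers 5.0.0, and no cell annotation was used. Barcodes with at least 200 genes and at most 10% mitochondrial UMIs were kept, and doublets were removed with Scrublet scores at 0.8% per 1000 barcodes, as its automatic threshold marked almost none. Pairs of libraries shared 28 to 70 barcode sequences, none with equal UMI totals. A nucleus went to Ryr2 with at least 5 UMIs of it, 0.5% of its UMIs and at most 1 UMI of any other marker. It went to another marker with at least 2 UMIs of it and at least 3 times each other non-CM marker. For these lineages Ryr2 also had to be under 0.5% of the UMIs of the nucleus. UMIs were summed per library and lineage and tested with edgeR 4.0.16 (quasi-likelihood, TMM, Benjamini-Hochberg over all genes tested, threshold 0.05), with library as a block between lineages. DESeq2 1.42.0, other scalings, filters, gates and thinning, and leaving out each library in turn were alternatives. Scripts were tested on simulated data. The 2 libraries per group set the precision. Of 2 rows named Tead2 the first was used. The 10 members were named in every lineage, and for the wider lists the 3 genes with the largest log2 increase when lineages were compared, or the largest change without overlap between sham and RVVO, were named. The members and lists, including markers, were chosen with earlier results of these data known.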

Additional observations from a re-analysis of the deposited data

How the results depend on the processing

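Among members called between lineages with TMM, scaling by library totals reversed Wwtr1 (-0.39), Lats1 (-0.029) and Cyr61 (-0.10) in Ryr2 nuclei. It also reversed Lats2 (0.0036) in Mrc1 nuclei. Amotl2 in Ryr2 nuclei, not called with TMM, changed sign too and was called lower. All of these are relative to a shift in the median of all genes. In the setting that thinned each nucleus before assignment, the marker minimum was 1 UMI and only the thinned UMIs were summed. Nuclei under 1000 UMIs were left out. This setting left 1 member called in Pdgfra nuclei in place of 3, and turned the Vgll4 difference of RVVO effects in these nuclei to 0.18. The cause was not tested. Thinning also ended the calls of Vgll4 (adjusted p = 0.246) and Amotl2 (0.0551) in Pdgfra, Lats1 (0.194) in Pdgfrb, and Lats2 (0.16) and Vgll4 (0.512) in Mrc1 nuclei. A marker minimum of 3 UMIs ended those of Lats1 in Pdgfrb (0.134) and Vgll4 in Mrc1 nuclei (0.114), and the latter was also lost with a minimum of 1 UMI (0.121), with no filter on low counts (0.0722) and without the Npr3 nuclei (0.091), a setting added after the data were seen. For RVVO against sham in Ptprb nuclei, 2 members (Ctgf, Amotl2) were called with no filter on low counts, and leaving out each library in turn gave 0 to 1 (Ctgf without RVVO 1). In the other 4 lineages 0 members were called under all 16 alternatives. Counts of all genes called were less stable, at 7, 34, 12, 7 and 8 in Ryr2, Ptprb, Pdgfra, Pdgfrb and Mrc1 nuclei, 81, 149, 27, 12 and 29 with DESeq2, 104, 561, 39, 117 and 247 with no filter, and 7 to 21, 40 to 164, 27 to 74, 11 to 98 and 6 to 578 without 1 library. Of the assignment settings, a marker minimum of 1 UMI gave 11 genes in Ptprb nuclei. Between lineages, thinning before assignment left 5120, 3774, 2512 and 3775 of 7903, 6662, 4737 and 6629 genes called in Ptprb, Pdgfra, Pdgfrb and Mrc1 nuclei. For differences of RVVO effects 10, 0, 2, 0 and 0 genes were called, 24, 0, 4, 0 and 31 with DESeq2, 157, 47, 28, 8 and 163 with no filter, and 0 to 39 in Ryr2 and 0 to 81 in Mrc1 nuclei without 1 library, and 0 members in each case. The share of Ptprb nuclei with a Ctgf UMI was 0.352, 0.719, 1.48 and 2.73% at 500 UMIs and 3.21, 2.53, 4.14 and 7.38% at 2000 UMIs. Library numbers are shared by the groups, but deviations of same-numbered libraries correlated by only -0.04 to 0.04. A replicate block gave 0 members called in all 5 lineages and 7, 19, 12, 8 and 8 genes, with Ctgf in Ptprb nuclei at 0.83 (adjusted p = 0.248). With no library block between lineages 7, 5, 2, 4 and 5 members were called in place of 9, 5, 3, 4 and 7. The calls lost included Vgll4 in Ryr2 (adjusted p = 0.113), Pdgfra (0.0772) and Mrc1 nuclei (0.258). Lats2 in Mrc1 nuclei (0.059) and Cyr61 in Ryr2 nuclei (0.0741) were also lost. The limits of depth fall on Cyr61 and on Ctgf in Mrc1 nuclei.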

Other observations

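Many nuclei stayed outside the 5 lineages. Some unassigned nuclei had no UMI of Ptprb, Pdgfra, Pdgfrb or Mrc1 and too little Ryr2 for its gate. They made up 49.3 and 53.1% of the unassigned nuclei in the sham and 25.8 and 37.3% in the RVVO libraries. Others met the Ryr2 limits but held more than 1 UMI of another marker. These were 4.21 and 1.43% of the unassigned nuclei in the sham and 20.1 and 6.22% in the RVVO libraries. Median depths of the assigned Ryr2 nuclei were 4308, 4497, 7918 and 4561 UMIs. The effect of this loss on the comparison of groups in Ryr2 nuclei was not tested. All unassigned nuclei together held 26.0 to 53.5% of the UMIs of a member in a library.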
